A study of Homo sapiens with 56 samples.

Results

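The data concern 36 genes of DNA repair and damage signalling, taken by gene symbol from the 21596 genes of the deposited table in the 56 RNA-seq libraries of a study of mantle cell lymphoma cell lines. The list was given as a set of homologous recombination, Fanconi, checkpoint and mismatch repair genes. All 36 were found once in the table, and all 36 passed the filter on low values in every comparison below. Mantle cell lymphoma is a B-cell lymphoma that carries a cyclin D1 translocation. Per its title, the study dealt with inhibiting BIRC5 and MCL-1 in drug-resistant disease.

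By cell line there were 15 libraries of JEKO-1, 13 of Z138, 15 of MINO-P and 13 of MINO-VR. The meaning of the suffixes P and VR, which mark different MINO cultures, is not given in the sources used here. Treatments are labelled CON (5 libraries), CLF (6), BTZ (6), BTZ_CLF (4), IBR (11), IBR_CLF (8), YM155 (4), S63845 (6), IBR_YM155 (2), BTZ_YM155 (2), IBR_S63845 (1) and BTZ_S63845 (1). The design text speaks of untreated cells and of combinations with a proteasome inhibitor and a BTK inhibitor. CON is read here as untreated, BTZ as the proteasome inhibitor bortezomib and IBR as the BTK inhibitor ibrutinib. S63845 inhibits the MCL-1 protein, and YM155 lowers expression of BIRC5 (survivin). What CLF stands for, the doses and the exposure times are not given in the sources used here. No label says that libraries of a group came from separate cultures, so the p-values measure the spread between these libraries, which may be technical.

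Homologous recombination repairs a double-strand break by copying an intact sister chromatid. The break is first cut back to single-stranded DNA by MRE11, RAD50 and NBN with RBBP8 (CtIP), EXO1 and BLM. BRCA1, BRCA2, PALB2, RAD51C, XRCC2 and XRCC3 then prepare the single strand for pairing, and RAD54L helps it to invade the template. The Fanconi proteins unhook crosslinks between the DNA strands, with ubiquitin placed on FANCD2 and FANCI by FANCL and UBE2T. The kinases ATM and ATR sense breaks and stalled forks and signal through CHEK2 and CHEK1. Recombination with a sister is confined to S and G2 phase, and many of these genes are known as E2F targets that are transcribed as cells enter S phase. ATM is often mutated in mantle cell lymphoma.

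Because these genes are known for E2F control, the promoters of the members were read from RefSeq (GRCh38.p14, 250 bases before to 50 after the start), which held 33 of the 36. For each gene 1 start was read, so other starts of the same gene are not covered. The BRCA1 window (chr17:43170278-43170577) lay wholly beyond the end of its entry in the deposited table (43170246). The E2F-type letters TTTGGCGC, TTTCGCGC, TTTCCCGC and TTTGCCGC, on either strand, were found in 7 of the 33 (21.2%), against 3.33% of all 27305 promoters of that length. Of the 26 members with a promoter that were lower under BTZ, 6 (23.1%) held a match, against 1 of the 7 that did not pass the test (14.3%). CCAAT on either strand was in 17 of 33 (51.5%, against 35.7% of all promoters). The CHR letters TTTGAA were in 6 of 33 (18.2%, against 15.4%). The lines below show the 7 stretches that end in the first E2F-type match, in capitals, and for RAD54L, which had the largest difference under BTZ and no such match, the 120 bases before its start with CCAAT (read as ATTGG on this strand) in capitals.
EXO1 (chr1:241848148-241848215, plus strand, match from base 5 of the transcript): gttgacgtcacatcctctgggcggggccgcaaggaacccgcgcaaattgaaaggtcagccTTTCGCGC
XRCC2 (chr7:152676113-152676180, minus strand, match from base 22): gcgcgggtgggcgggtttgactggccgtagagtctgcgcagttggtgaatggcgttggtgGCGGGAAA
FANCA (chr16:89816812-89816879, minus strand, match from -172): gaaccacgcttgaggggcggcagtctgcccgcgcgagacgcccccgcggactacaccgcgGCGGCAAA
FANCD2 (chr3:10026375-10026442, plus strand, match from -2): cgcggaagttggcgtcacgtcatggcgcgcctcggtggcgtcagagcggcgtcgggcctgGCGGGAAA
FANCC (chr9:95317874-95317941, minus strand, match from -172): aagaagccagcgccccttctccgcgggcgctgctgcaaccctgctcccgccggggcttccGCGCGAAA
MSH6 (chr2:47783088-47783155, plus strand, match from base 4): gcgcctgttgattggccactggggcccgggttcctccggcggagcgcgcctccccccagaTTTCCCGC
TOPBP1 (chr3:133661941-133662008, minus strand, match from -7): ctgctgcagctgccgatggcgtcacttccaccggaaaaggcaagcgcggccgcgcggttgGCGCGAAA
RAD54L (chr1:46247568-46247687, plus strand, CCAAT match from -65): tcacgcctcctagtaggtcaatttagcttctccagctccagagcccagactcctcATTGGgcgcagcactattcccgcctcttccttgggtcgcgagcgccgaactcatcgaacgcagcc
A match describes letters in a window, and factor binding was not measured. TOPBP1 is the member with a match whose difference under BTZ did not pass the test.

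Values below are CPM over the genes that are not mitochondrially encoded (nuclear CPM), because mitochondrial transcripts took 1.91% to 80.5% of a library. Tests were made with limma on log2(nuclear CPM + 1), a scale that understates changes of low genes, with p-values adjusted by the Benjamini-Hochberg method over all genes tested and a threshold of 0.05. Where 2 library names of a group differed only by a final lower-case letter, the libraries were averaged, which left 48 library units. Recovered depth was 5.52 to 21.6 M reads a library, so that 3 reads were worth 0.139 to 0.543 CPM as deposited. In nuclear CPM a read was worth more than that, most so in libraries with a high share of mitochondrial transcripts. The B-cell markers CD79A, MS4A1, CCND1 and SOX11 were present in every line, and CD5 lay between 0 and 0.485 CPM in Z138. The 10 summed T, NK, myeloid and fibroblast markers came to 0 to 76.0 CPM a library, most of it COL1A1 (10.3 to 74.8 in Z138), with CD3E at 0.743 or less. Some libraries stood apart. Mitochondrial transcripts held 67.6% and 67.5% of JEKO-1 BTZ replicates 1 and 2, 80.5% and 65.5% of the JEKO-1 BTZ_CLF libraries, and 60.7% and 59.1% of the JEKO-1 IBR_CLF libraries. JEKO-1 BTZ replicate 3 (9.92% mitochondrial) had RAD54L and RAD54B listed at 0 and MRE11 at 264 nuclear CPM. Z138 IBR_CLF replicate 1 had RAD54L at 41.9 nuclear CPM where replicate 2 had 14.5.

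The first question is what BTZ did to these genes. The comparison set the 8 units of BTZ and BTZ_CLF against the 11 units of CON and CLF in all 4 lines, with line and CLF as terms. Of the 36 genes, 28 were lower under BTZ, none was higher and 8 did not pass the test, while 28.6% of all 15301 genes tested were called (20.6% lower and 8.06% higher). The median difference over the 36 was -1.15 on the log2 scale, against -0.20 over all genes tested, and 35 of the 36 lay below zero. The fall took in every recombination gene (10 of 10), 8 of the 9 Fanconi genes and MSH6 and PARP1. It took in 4 of the 7 resection and helicase genes and 4 of the 8 checkpoint genes. In bulk RNA, fewer cells in S phase and less RNA of a gene per cell cannot be told apart.

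**Figure D1:**
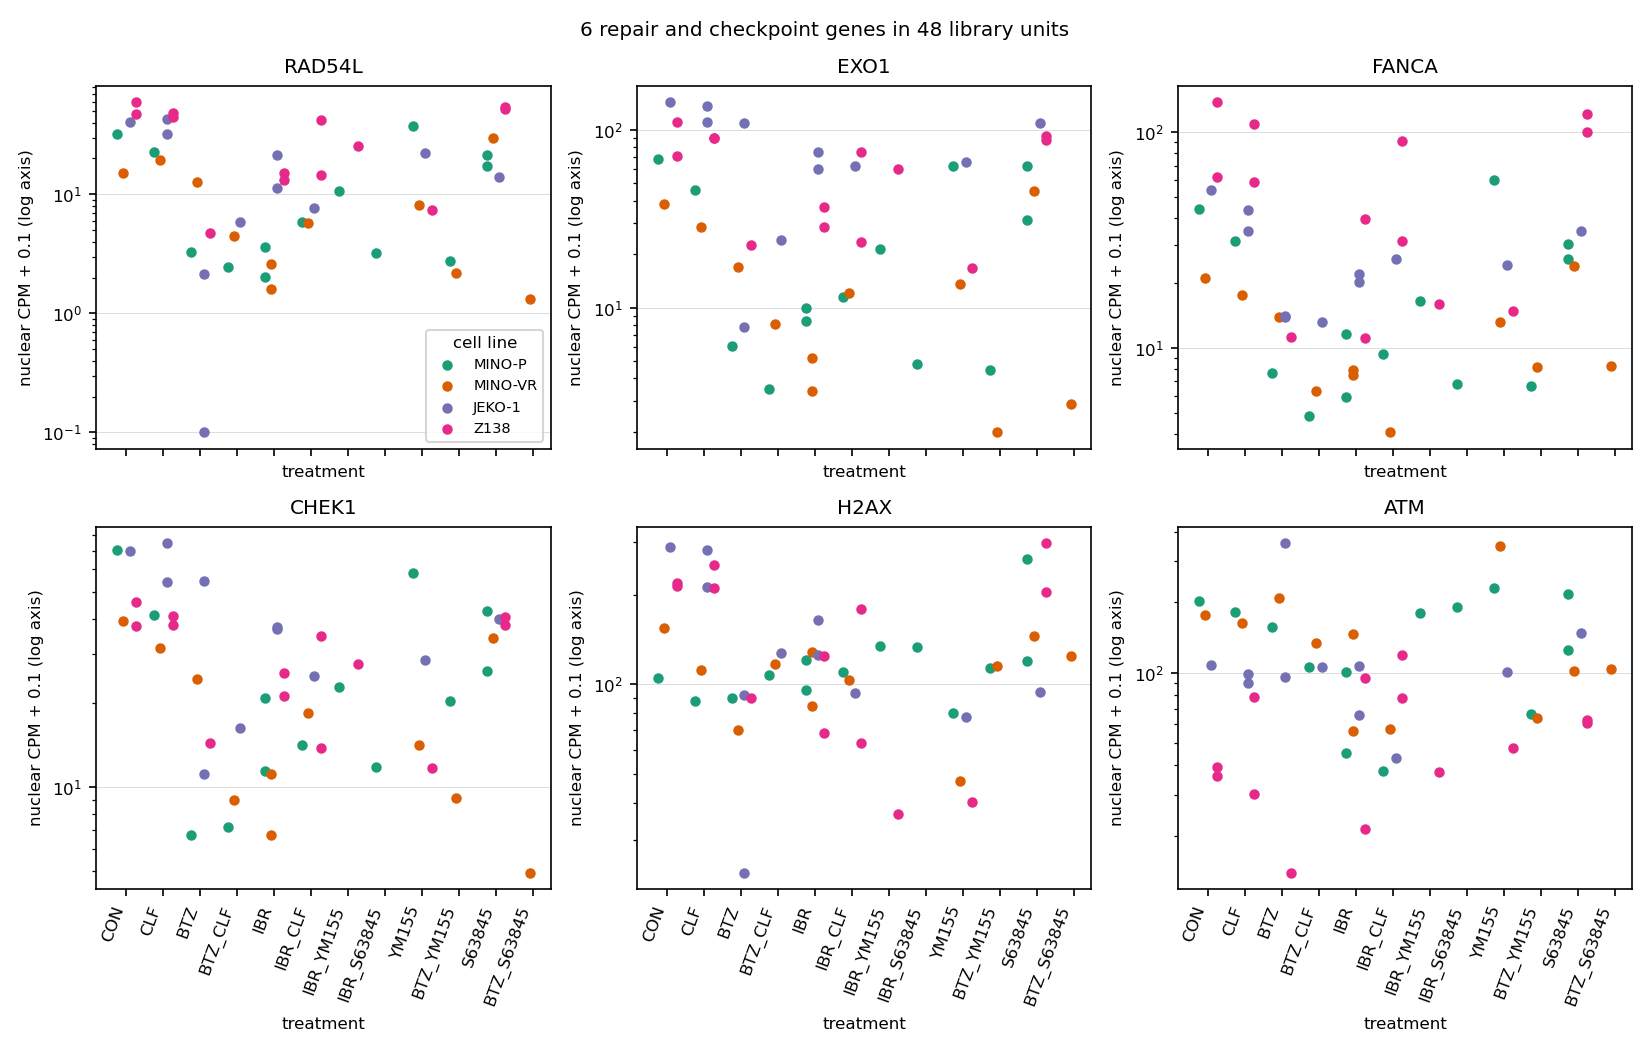
Nuclear CPM plus 0.1 (log axis) of RAD54L, EXO1, FANCA, CHEK1, H2AX and ATM by treatment, with 1 point for each of the 48 library units, coloured by cell line. RAD54L and FANCA under BTZ and BTZ_CLF lie below every CON and CLF point (at most 12.6 and 14.0 nuclear CPM), while the ATM points of the same groups overlap.

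Among the recombination genes, RAD54L, a motor protein of strand invasion, differed most. Its units with BTZ were at 0, 3.78 and 12.6 nuclear CPM (lowest, median, highest), and those without at 15.0, 40.3 and 58.9. The groups did not overlap in any line, and the highest BTZ value was the one of MINO-VR. The log2 difference was -2.81 ± 0.39 (SE; limma adjusted p = 8.87e-05). XRCC3, which also acts late in recombination, went from 28.9, 51.0 and 101 without BTZ to 7.51, 16.1 and 44.2 with it. Within each line its units with BTZ were all below those without, though the ranges over all lines overlapped, and the difference was -1.84 ± 0.24 (adjusted p = 5.23e-05). XRCC2, which acts earlier at the single strand, had 0.43, 6.76 and 69.7 with BTZ and 21.8, 31.8 and 86.7 without, a difference of -2.01 ± 0.55 (adjusted p = 0.0113). Its value of 69.7 came from JEKO-1 BTZ replicate 3. The mean of the other JEKO-1 BTZ libraries was 0.43 (0.857 in replicate 1 and 0 in replicate 2), near the worth of a few reads.

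BRCA1, the ubiquitin ligase that steers breaks toward recombination, had 3.26, 24.4 and 89.2 nuclear CPM with BTZ and 54.7, 73.9 and 147 without. The difference was -1.65 ± 0.43 (limma adjusted p = 0.00800), and the ranges met only through JEKO-1 BTZ replicate 3 at 89.2. Its partner BARD1 differed by -1.35, and BRCA2, a mediator of strand exchange, by -1.71. Both calls are less firm. BRCA2 kept its call in 12 of the 19 fits that left out 1 unit, with limma adjusted p up to 0.0725, and BARD1 in 18 of 19. In JEKO-1 BTZ replicate 3 BRCA2 was at 264 and BARD1 at 117 nuclear CPM, against 47.2 and 40.1 in JEKO-1 CON. PALB2, the bridge between BRCA1 and BRCA2, had the smallest fall of this group at -0.60, and kept its call in 16 of 19. RAD51AP1 (-1.55), RAD54B (-1.45) and RAD51C (-1.15) fell between these values. RAD54B fell in every line without overlap, but in JEKO-1 it was at 0.93 to 2.80 nuclear CPM without BTZ and at 0 to 0.84 with it, near the worth of a few reads.

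Of the resection enzymes, EXO1, the exonuclease of long-range resection and of mismatch repair, had 3.41, 12.3 and 109 nuclear CPM with BTZ and 28.4, 89.8 and 142 without (difference -2.32 ± 0.38, limma adjusted p = 0.000302). The value of 109 was again JEKO-1 BTZ replicate 3. In MINO-P EXO1 was at 68.0 in CON, 45.6 in CLF, 6.01 in BTZ and 3.41 in BTZ_CLF. BRIP1, the helicase partner of BRCA1, had 1.20, 5.46 and 53.9 with BTZ and 12.8, 40.1 and 72.7 without (-2.19 ± 0.47, adjusted p = 0.00239). The BLM helicase fell by 1.31 on the log2 scale. The complex that first binds a broken end moved less. RAD50 was called at -0.62, in 5 of the 19 fits that left out 1 unit, whereas MRE11 (-0.57, adjusted p = 0.211) and NBN (-0.26, adjusted p = 0.283) did not pass the test. RBBP8, which starts resection with that complex, had -0.80 and an adjusted p of 0.0681.

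The Fanconi genes that fell stretched across the pathway. FANCA, of the core complex, had 4.72, 12.1 and 14.0 nuclear CPM with BTZ and 17.5, 43.9 and 137 without. Besides RAD54L it was the other member lower in every BTZ unit of any line, as were 1.37% of all genes, with a difference of -1.95 ± 0.26 (limma adjusted p = 6.33e-05). UBE2T, the conjugating enzyme, differed by -1.82, and its substrates FANCD2 and FANCI by -1.68 and -1.67. FANCD2 had 6.12, 15.0 and 49.1 with BTZ and 30.7, 53.2 and 89.0 without (adjusted p = 0.000857), and its highest values with BTZ were those of JEKO-1 BTZ replicate 3 and MINO-VR BTZ (47.2). FANCC (-1.37), FANCE (-0.93), FANCL (-0.76) and FANCG (-0.73) also fell. The FANCL call was kept in 1 of the 19 fits that left out 1 unit, and that of FANCE in 12. FANCM, the translocase that remodels stalled forks, had -0.14 (adjusted p = 0.748).

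The checkpoint genes divided. CHEK1, the kinase downstream of ATR, had 6.62, 12.6 and 54.4 nuclear CPM with BTZ and 31.2, 41.1 and 74.5 without, a difference of -1.83 ± 0.29 (limma adjusted p = 0.000220). CHEK2, downstream of ATM, differed by -1.15, and the scaffold MDC1, which binds phosphorylated H2AX, by -0.95. H2AX, the histone variant marked at breaks, had 23.1, 90.8 and 127 with BTZ and 87.7, 212 and 290.0 without (-0.98 ± 0.31, adjusted p = 0.0263). Its difference was 0.03 in MINO-P, -0.53 in MINO-VR, -1.90 in JEKO-1 and -1.18 in Z138. With size factors in place of nuclear CPM its adjusted p no longer passed (difference -0.82). It also lost its call without MINO-VR CON, JEKO-1 CON or Z138 BTZ replicate 1. The upstream kinases did not pass the test. ATM had 13.8, 119.8 and 358 with BTZ and 30.1, 98.2 and 203 without (-0.25 ± 0.31, adjusted p = 0.592), and ATR had -0.17 (adjusted p = 0.640). TOPBP1, which activates ATR, had -0.58 (adjusted p = 0.188), and TP53BP1, which shields ends from resection, had 0.13 (adjusted p = 0.681).

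PARP1, the sensor of single-strand breaks, had 107, 361 and 529 nuclear CPM with BTZ and 492, 800.2 and 1104 without (-0.94 ± 0.25, limma adjusted p = 0.0104). MSH6, a mismatch recognition subunit, differed by -0.91. Both were lower in every line on average.

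**Figure D2:**
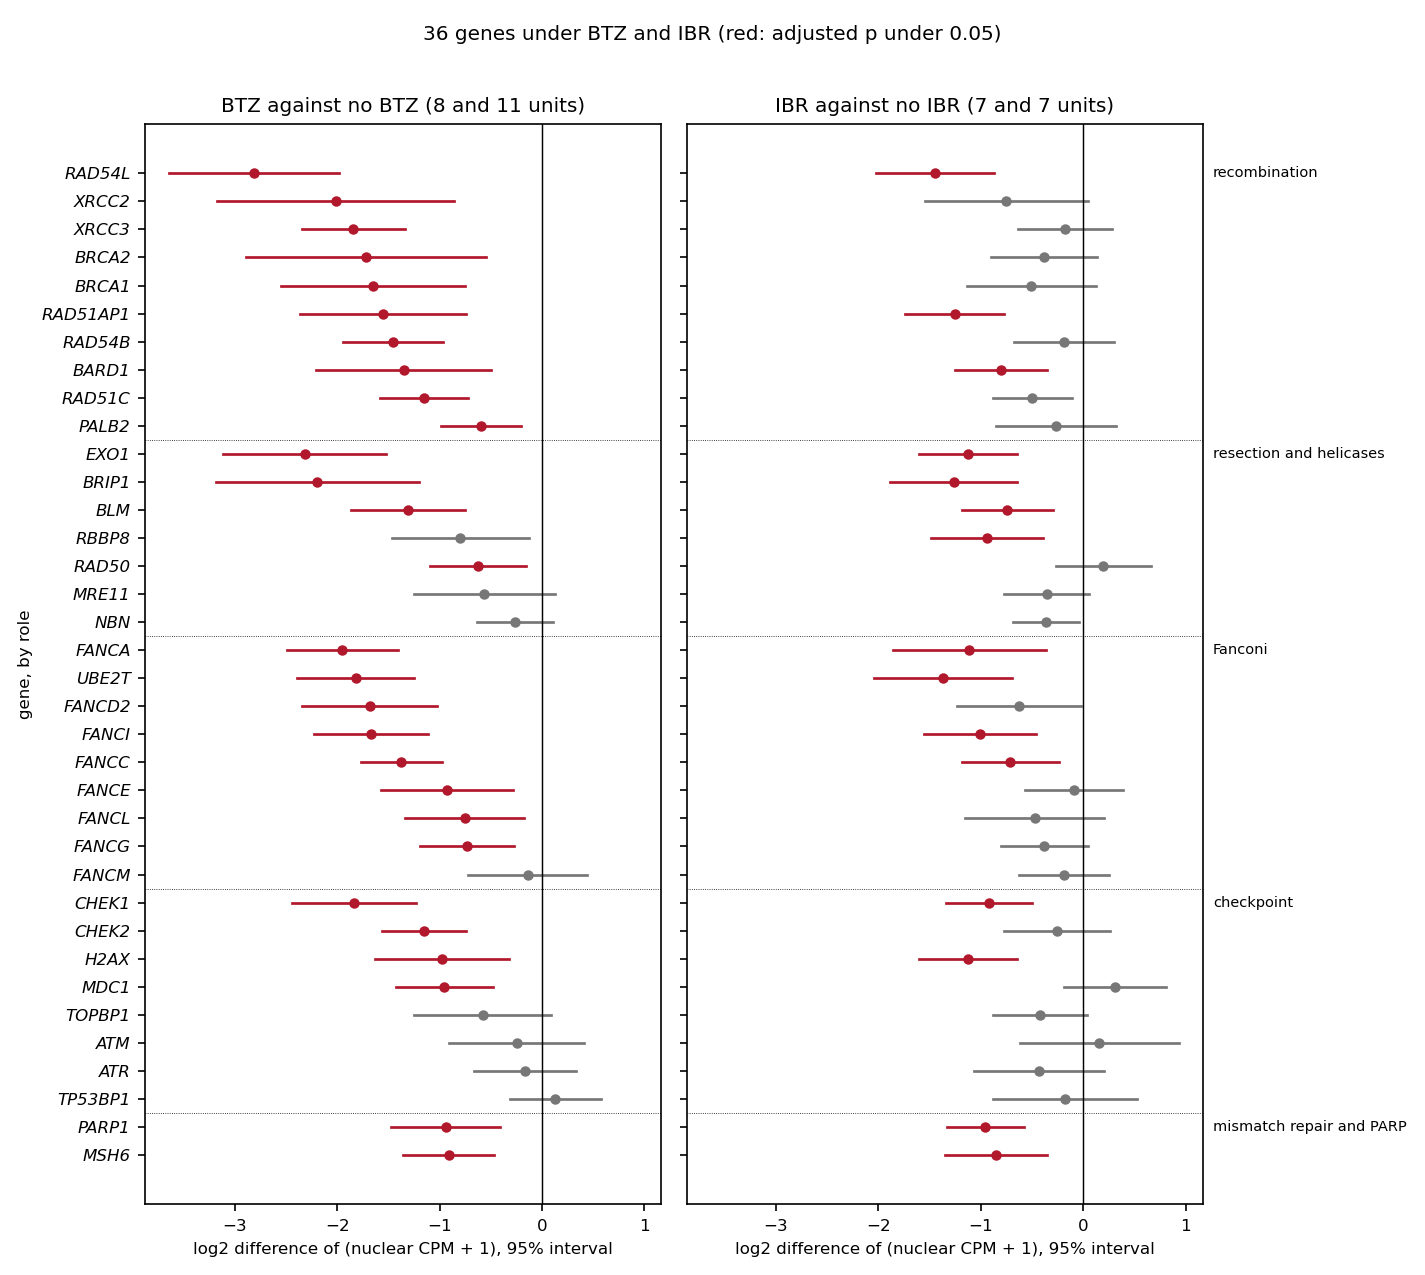
Log2 difference of (nuclear CPM + 1) with its 95% interval for the 36 genes, grouped by role, under BTZ (left, 8 against 11 units) and IBR (right, 7 against 7 units), on a shared axis. Red marks an adjusted p under 0.05. RAD54L is farthest from zero in both panels (-2.81 and -1.45), and ATM, ATR and TP53BP1 have intervals across zero in both.

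The median BTZ difference of the 36 genes was below zero in all 4 lines, though in unequal size and not alike in every unit. The median over the 36 genes was -1.67 in Z138, -1.42 in JEKO-1, -1.23 in MINO-P and -0.63 in MINO-VR, with all-gene medians of -0.29, -0.16, -0.17 and -0.09. Z138 had 1 BTZ library and no BTZ_CLF library, so its values with BTZ rest on 1 unit. The JEKO-1 units with BTZ differed from each other. The 36 genes summed to 3403 nuclear CPM in BTZ replicate 3, against 1372 and 1286 in replicates 1 and 2 and 3600 in CON. Single genes went both ways in replicate 3, with TOPBP1 at 265 against 124 in CON and RAD54L at 0 against 40.3. In every line, 7 members were lower with BTZ with no overlap of units (RAD54L, RAD54B, XRCC3, FANCA, FANCC, FANCG and EXO1), as were 7.08% of all genes. In MINO-VR the 2 treated libraries differed. BTZ alone against CON had a median of -0.24 over the 36 genes, and BRCA1 stood at 54.4 nuclear CPM against 66.4, RAD54L at 12.6 against 15.0 and FANCD2 at 47.2 against 52.3. BTZ_CLF against BTZ then differed by a median of -0.80, with 35 of 36 genes below zero, BRCA1 at 26.2, RAD54L at 4.35 and FANCD2 at 15.9. In MINO-P the order was the other way round, with -1.32 for BTZ against CON and -0.31 for BTZ_CLF against BTZ. These contrasts rest on 1 library a group and have no test.

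A test of whether the BTZ difference depended on the line called 1 of the 36 genes, TP53BP1 (limma F-test, adjusted p = 0.0416), a share below the 4.10% of all genes. The MINO libraries of this comparison all belong to 1 library name series and the JEKO-1 and Z138 libraries to another, so a difference between MINO and the other lines cannot be told apart from the series. Its BTZ difference was 0.85 in MINO-VR, 0.60 in MINO-P, 0.22 in Z138 and -0.76 in JEKO-1. In MINO-P it was at 91.6 in CON, 90.8 in CLF, 149 in BTZ and 129 in BTZ_CLF. In JEKO-1 it was at 92.3 in CON, 90.6 and 129.7 in CLF, 66.8 and 59.8 in BTZ and 53.4 in BTZ_CLF. Of the JEKO-1 units with BTZ, the averaged BTZ pair and the averaged BTZ_CLF pair held over 50% mitochondrial transcripts, and the part of this in the result was not tested. Without JEKO-1 BTZ replicate 3 the test called 15 of the 36, so for the other genes a lack of line dependence was not shown.

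**Figure D3:**
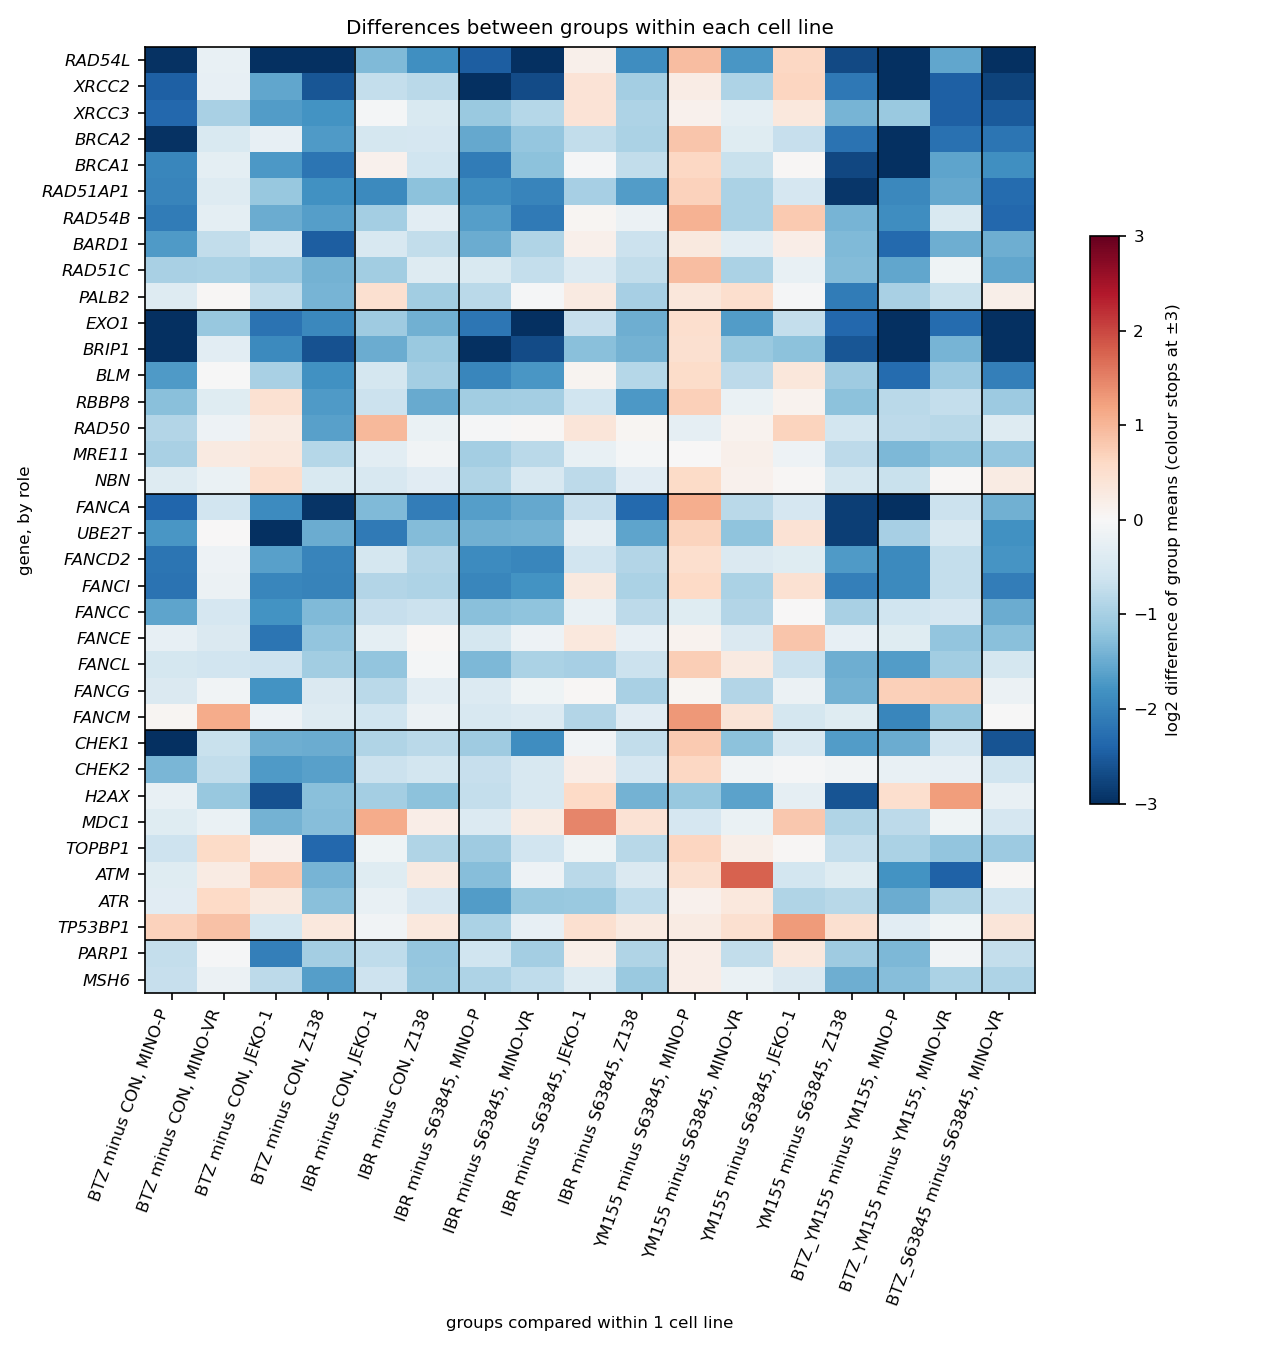
Log2 difference between group means of (nuclear CPM + 1) within 1 cell line, for the 36 genes (rows, by role) and 17 pairs of groups (columns), blue for lower and red for higher, with colour stopping at 3 in either direction. The BTZ columns are blue for most genes, palest in MINO-VR (median -0.24), and the YM155 columns run from red in MINO-P (median 0.50) to blue in Z138 (median -1.39).

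The BTZ count varied with the libraries used. With BTZ and CON alone no member was called (limma) and neither was any of 14527 genes, with 17 members at an unadjusted p under 0.05 and a member median of -1.23. With JEKO-1 and Z138 alone 7 were called (among 522 of 14754 genes), and with the MINO cultures alone 28 (27 lower and 1 higher, among 7550 of 13442 genes called). Left out 1 at a time, the units gave 21 to 32 calls, the fewest without Z138 BTZ replicate 1 and the most without JEKO-1 BTZ replicate 3, and 20 of the 28 genes were called in every such fit. Without the libraries over 50% mitochondrial, 23 were called.

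Genes of the same pathways outside the 36 were read from lists that hold none of the members. Of all genes tested under BTZ, 20.6% were lower and 8.06% higher, with a median of -0.20. Of 24 further recombination genes, 9 were lower under BTZ and none higher (median -0.50), among them the DNA2 nuclease (-2.46), RAD51B (-1.68) and the crossover nuclease subunit EME1 (-1.76). Of 13 further Fanconi genes 6 were lower (median -0.79), with FAAP24 at -1.38 and the deubiquitinase USP1 at -0.90. Of 21 further checkpoint genes 8 were lower and 1 higher (median -0.45). CLSPN, the adaptor between ATR and CHEK1, had -2.52 and the WEE1 kinase -2.06, and HUS1, of the clamp that recruits TOPBP1, rose by 0.53. Of 9 mismatch repair genes 6 were lower, with the sliding clamp PCNA at -2.23. Of 14 end joining and single-strand break genes 6 were lower (median -0.37), with PRKDC at -1.24, while XRCC4 (0.16) and LIG4 (0.15) did not pass.

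S-phase and mitosis genes were lower under BTZ as well. Of 17 S-phase genes 16 were lower under BTZ (median -2.33), and of 14 mitosis genes all 14 (median -2.44). The summed S-phase genes were 486, 793 and 1519 nuclear CPM with BTZ (lowest, median, highest) and 1652, 3830 and 6208 without, so the groups did not overlap. The summed mitosis genes were 190, 280 and 2412 with BTZ, the last in JEKO-1 BTZ replicate 3, and 1047, 2416 and 3897 without. The part of these in the fall of the repair genes was not tested.

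The IBR comparison used JEKO-1 and Z138, the lines with CON and IBR libraries of the same name series, and set 7 units of IBR and IBR_CLF against 7 of CON and CLF. Of the 36 genes, 15 were lower under IBR and none higher, while 12.9% of 15090 genes were called (6.94% lower and 5.92% higher). The median over the 36 was -0.50, against 0.07 over all genes, and 33 lay below zero. The controls were also controls of the BTZ comparison, so the comparisons are given side by side and not as support for each other. The genes called were BARD1, RAD51AP1 and RAD54L (3 of 10 recombination genes), BRIP1, BLM, EXO1 and RBBP8 (4 of 7), FANCA, FANCC, FANCI and UBE2T (4 of 9), CHEK1 and H2AX (2 of 8), and MSH6 and PARP1.

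RAD54L again differed most, with 7.58, 14.5 and 41.9 nuclear CPM under IBR and 32.0, 44.8 and 58.9 without (-1.45 ± 0.27, limma adjusted p = 0.00595). Its value of 41.9 was that of Z138 IBR_CLF replicate 1. The other IBR units lay at or below 21.3, under every unit without IBR. UBE2T had 9.55, 23.5 and 93.3 under IBR and 54.3, 73.0 and 75.7 without (-1.37 ± 0.32, adjusted p = 0.0147), the value of 93.3 from the same Z138 library. RAD51AP1, which promotes strand pairing, had a median of 17.2 and a highest unit of 42.4 under IBR, against 29.8, 53.7 and 58.7 (-1.26 ± 0.23, adjusted p = 0.00520). BRIP1 had 7.01, 19.8 and 65.2 against 31.0, 54.0 and 72.7 (-1.26 ± 0.29, adjusted p = 0.0142). EXO1 had 23.4, 60.1 and 75.0 against 71.3, 110.6 and 142 (-1.13 ± 0.22, adjusted p = 0.00756). Z138 IBR_CLF replicate 1 was the highest unit with IBR for RAD51AP1, BRIP1 and EXO1. It alone made the RAD51AP1 ranges overlap, while for BRIP1 Z138 IBR replicate 2 (33.4) and for EXO1 JEKO-1 IBR replicate 3 (74.8) also reached into the range without IBR.

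CHEK1, PARP1 and H2AX were lower in every IBR unit than in every unit without it, as were 0.868% of all genes. CHEK1 had 13.6, 25.4 and 37.2 against 37.7, 45.8 and 74.5 (-0.92 ± 0.20, limma adjusted p = 0.00993). PARP1 had 299, 495 and 677 against 694, 962 and 1104 (-0.96 ± 0.18, adjusted p = 0.00550). H2AX had 63.2, 124 and 179 against 209.6, 219 and 290.0 (-1.13 ± 0.23, adjusted p = 0.00776). Within each line 7 members had no overlap (these 3 with BARD1, RAD51AP1, RAD54L and FANCC), as had 3.09% of all genes.

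Several genes that fell under BTZ did not pass under IBR. BRCA1 had 16.5, 88.3 and 126 under IBR and 54.7, 109.7 and 147 without (-0.51 ± 0.30, limma adjusted p = 0.263). FANCD2 had 15.2, 49.7 and 75.8 against a median of 59.1 and a highest unit of 89.0 (-0.63 ± 0.28, adjusted p = 0.148). XRCC3 had -0.18 with a 95% interval of -0.64 to 0.28, and RAD54B -0.19 with -0.68 to 0.30. CHEK2 had -0.26 with -0.77 to 0.26. The difference between the drugs was not tested, since they share controls. The comparisons also differ in their libraries, with 19 units in 4 lines for BTZ and 14 units in JEKO-1 and Z138 for IBR. With JEKO-1 and Z138 alone, 7 members were called under BTZ (limma). ATM had 21.3, 77.8 and 118 under IBR and 30.1, 78.8 and 107 without (0.16 ± 0.37, adjusted p = 0.807), and its sign turned with the setting (-0.73 in JEKO-1 alone, -0.13 with the values as deposited). MDC1 had 0.31 (adjusted p = 0.388) and RAD50 0.20 (adjusted p = 0.577).

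The IBR difference was -0.67 in JEKO-1 and -0.44 in Z138 by the median of the 36 genes, with all-gene medians of -0.00160 and 0.082. The test of a difference between the lines called none of the 36 (limma, 1 at an unadjusted p under 0.05) and 0.139% of all genes. In each line alone few genes of any kind were called (9 of 13672 in JEKO-1 and 0 of 13662 in Z138, limma), none of them a member, with 17 members in JEKO-1 and 14 in Z138 at an unadjusted p under 0.05. Left out 1 at a time, the units gave 8 to 16 calls, with 8 of the 15 genes called in every such fit. Without JEKO-1 CON replicate 1 or Z138 IBR_CLF replicate 2, 8 were called. The calls of FANCC and FANCA were kept in 2 and 3 of the 14 such fits, that of BLM in 6, of MSH6 in 7 and of RBBP8 in 8. Without the libraries over 50% mitochondrial, 10 of the 36 were called.

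Of the lists outside the 36, 2 of 24 recombination genes were lower under IBR, a share close to the 6.94% of all genes (DNA2 at -1.07 and RPA3, a subunit of the single-strand binding protein, at -0.79). Of the Fanconi genes 2 of 13 were lower (FAAP100 at -0.79 and USP1 at -0.78). Of the checkpoint genes 7 of 21 were lower, with CDC7 at -1.89 and CLSPN at -1.79, and HUS1 was higher at 0.68. Of the mismatch repair genes 4 of 9 were lower, with PCNA at -1.60. Of the end joining and single-strand break genes 3 of 14 were lower, the DNA-dependent protein kinase subunits PRKDC (-1.43), XRCC5 (-0.78) and XRCC6 (-0.60), and POLL was higher at 0.72. Of the S-phase genes 16 of 17 were lower (median -1.40) and of the mitosis genes 7 of 14 (median -1.23). The summed S-phase genes were 1148, 1501 and 2949 nuclear CPM under IBR and 3437, 4361 and 6208 without. Their part in the IBR result was not tested.

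MINO-P and MINO-VR had no CON library in the name series of their IBR libraries, so IBR was also set against S63845, which all 4 lines had. In the model of the 48 libraries of that series (40 units, treatment and line as terms), 11 of the 36 were lower under IBR than under S63845 and none higher, while 5.46% of 16668 genes were called (3.95% lower). The median was -0.85, against -0.04 over all genes. BRIP1 differed by -2.15 ± 0.52 (adjusted p = 0.0142), RAD54L by -1.91 ± 0.42 (0.00883), EXO1 by -1.84 ± 0.42 (0.0103), RAD51AP1 by -1.67 ± 0.42 (0.0178), FANCA by -1.61 ± 0.40 (0.0160) and FANCD2 by -1.31 ± 0.40 (0.0452), all by limma. FANCC, FANCI, UBE2T, BLM and RBBP8 were the others called. RAD54L was at 3.49 and 1.93 nuclear CPM in the MINO-P IBR units and at 17.1 and 21.3 under S63845, and in MINO-VR at 2.51 and 1.51 against 29.4. In JEKO-1 it was at 21.3 and 11.2 against 13.8, so those ranges overlapped. By the median of the 36 the difference was -1.18 in MINO-P, -0.98 in MINO-VR, -0.85 in Z138 and -0.12 in JEKO-1.

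This count rested on few libraries. Without the 1 MINO-VR S63845 library no member was called, and without the averaged MINO-P IBR pair or Z138 S63845 replicate 1, 4 were. FANCD2 lost its call in 14 of its 19 alternatives. Within each line 7 members had no overlap (BRIP1, RAD51C, RAD51AP1, FANCA, FANCC, EXO1 and CHEK1), as had 5.08% of all genes, and none was higher in every line (2.32% of all genes).

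S63845 was set against CON in the same model, where CON libraries came from JEKO-1 and Z138. None of the 36 was called (limma, none at an unadjusted p under 0.05), nor was any of the 16668 genes (0%), with 212 genes at an unadjusted p under 0.05. The median over the 36 was 0.02. In Z138 the 36 genes had a median of 0.09, from -0.27 (RAD50) to 0.70 (ATM), with 2 units a group. In JEKO-1, with 1 library a group, the median was -0.46 and UBE2T had the lowest value at -1.86 (19.4 against 73.0 nuclear CPM).

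YM155 had 1 library a line, and the lines went different ways. Against S63845 of the same line, the median of the 36 genes was 0.50 in MINO-P (32 of 36 above zero), -0.00283 in JEKO-1, -0.43 in MINO-VR and -1.39 in Z138 (35 of 36 below zero, 24 of them below -1). In Z138 BRCA1 was at 17.8 nuclear CPM under YM155, against 121 and 126 under S63845 and 116 and 109.7 in CON. RAD51AP1 was at 7.36, against 65.1 and 58.6 under S63845. In MINO-P BRCA1 was at 151 under YM155, against 76.5 and 126 under S63845. Over the lines none of the 36 was called for YM155 against CON (limma, 3 at an unadjusted p under 0.05, 0% of all genes called and 1687 genes unadjusted) or against S63845 (3 unadjusted, 0% of all genes). The median for YM155 against CON was -0.42, and it became 0.10 without the Z138 YM155 library.

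H2AX and TP53BP1 were the members that kept 1 direction under YM155 in all 4 lines. H2AX was at 79.9 nuclear CPM in MINO-P, 47.2 in MINO-VR, 77.7 in JEKO-1 and 40.0 in Z138 under YM155, and from 93.8 to 298 in the 6 S63845 units, with no overlap. Its difference was -1.52 ± 0.37 against S63845 (limma adjusted p = 0.316) and -2.06 ± 0.46 against CON (adjusted p = 0.0983), so neither passed. TP53BP1 was at 128 to 149 under YM155 and at 60.8 to 116 under S63845 (0.59 ± 0.36, adjusted p = 0.708). Lower units in every line were found for 3.79% of all genes, and higher units in every line for 6.25%. Of the members, 1 was lower and 1 was higher in this way, and both shares lie below those of all genes. The shares refer to units compared within each line, and not to a lack of overlap over all lines together. H2AX and TP53BP1 were singled out after their values were seen.

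BTZ_YM155 was set against YM155 in the MINO cultures, with 1 library a group in each. None of the 36 was called (limma, 8 at an unadjusted p under 0.05), and 0.258% of all genes were (0.066% lower and 0.192% higher). The median was -0.69 in the model, against -0.12 over all genes. In MINO-P the difference had a median of -1.48, with EXO1 at 4.35 nuclear CPM against 62.5 and BRCA1 at 15.8 against 151. In MINO-VR it had -0.86, with EXO1 at 1.89 against 13.4 and XRCC3 at 5.92 against 36.9, while H2AX was at 115 against 47.2. BTZ_S63845, with 1 MINO-VR library, stood at a median of -1.35 from S63845, with RAD54L at 1.22 against 29.4 nuclear CPM.

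IBR_YM155 against YM155 went in opposite directions in the lines that had it, with 1 library a group and no test. The median over the 36 was -0.84 in MINO-P (30 below zero) and 0.27 in Z138 (24 above zero). EXO1 was at 21.3 nuclear CPM in the combination and 62.5 under YM155 in MINO-P, and at 60.4 and 16.7 in Z138. In MINO-P IBR_S63845 differed from S63845 by a median of -0.54, with EXO1 at 4.75 against 31.0 and 62.5.

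CLF was compared within each line and partner drug over 31 units. None of the 36 was called (limma, 1 at an unadjusted p under 0.05), as was none of 16187 genes (0%, 528 unadjusted). MRE11 was the member with the smallest unadjusted p, at -0.44 (adjusted p = 0.957). The median over the 36 was -0.11, against 0.03 over all genes, and CLF against CON alone had medians of -0.37 in MINO-P, -0.20 in MINO-VR, -0.13 in JEKO-1 and 0.10 in Z138.

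Between lines, the members were called no more often than other genes, and the values are given as a description. The comparisons used only drug-treated libraries, the 23 units of IBR, IBR_CLF, YM155 and S63845 in the 1 name series, with treatment as a term. JEKO-1 differed from MINO-P in 10 of the 36 genes, 9 higher and 1 lower, while 30.5% of 15836 genes were called (18.1% higher and 12.4% lower). XRCC3 was at 73.4, 91.3 and 99.6 nuclear CPM in JEKO-1 (lowest, median, highest of 5 units) and at 9.33, 27.2 and 45.1 in the 6 MINO-P units, with no overlap (7.63% of all genes were higher and 5.27% lower in this way; 1.82 ± 0.31, limma adjusted p = 9.27e-05). EXO1 was at 60.1, 65.6 and 109 against 8.27, 21.2 and 62.5 (1.86 ± 0.42, adjusted p = 0.00186). FANCC (1.35), FANCD2 (1.26) and TOPBP1 (1.07) were the next largest, and BLM, MRE11, MSH6 and FANCG were also higher. RAD54B was lower in JEKO-1, at 0.74, 1.05 and 2.26 against 1.43, 5.56 and 18.7 (-1.32 ± 0.45, adjusted p = 0.0304). Without the MINO-P YM155 library the count was 14 and RAD54B lost its call. In the single CON libraries, which for MINO-P belong to the other name series, XRCC3 was at 101 in JEKO-1 and 53.1 in MINO-P, FANCD2 at 59.1 and 48.2, and BLM at 67.4 and 61.6.

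Z138 differed from JEKO-1 in 6 of the 36 genes, 3 higher and 3 lower, a share below that of all genes (44.8%, with 21.6% higher and 23.2% lower). RAD54B was at 3.14, 8.91 and 13.3 nuclear CPM in the 7 Z138 units, above every JEKO-1 unit, as were 8.16% of all genes (1.96 ± 0.44, limma adjusted p = 0.000943). FANCE was at 33.8, 45.4 and 56.3 against 13.2, 17.3 and 24.2 (1.27 ± 0.28, adjusted p = 0.000948). XRCC2 was higher by 1.48 ± 0.57 (adjusted p = 0.0394), a call that was lost without any of several libraries. XRCC3 had a difference of -1.35. Of the end-binding complex, MRE11 was at 13.0, 22.1 and 24.4 in Z138 against 33.0, 65.9 and 84.8 in JEKO-1 (-1.43 ± 0.27, adjusted p = 0.000157), with no overlap (10.6% of all genes), and RAD50 at 62.5, 103 and 122 against 130.4, 146 and 268 (-0.90 ± 0.23, adjusted p = 0.00251). Their partner NBN was at 54.0, 69.3 and 80.5 against 24.8, 44.0 and 59.9, a difference of 0.60 that did not pass (adjusted p = 0.0788). Without the Z138 YM155 library 14 members were called. ATM, ATR and the other checkpoint members did not pass between these lines.

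**Figure D4:**
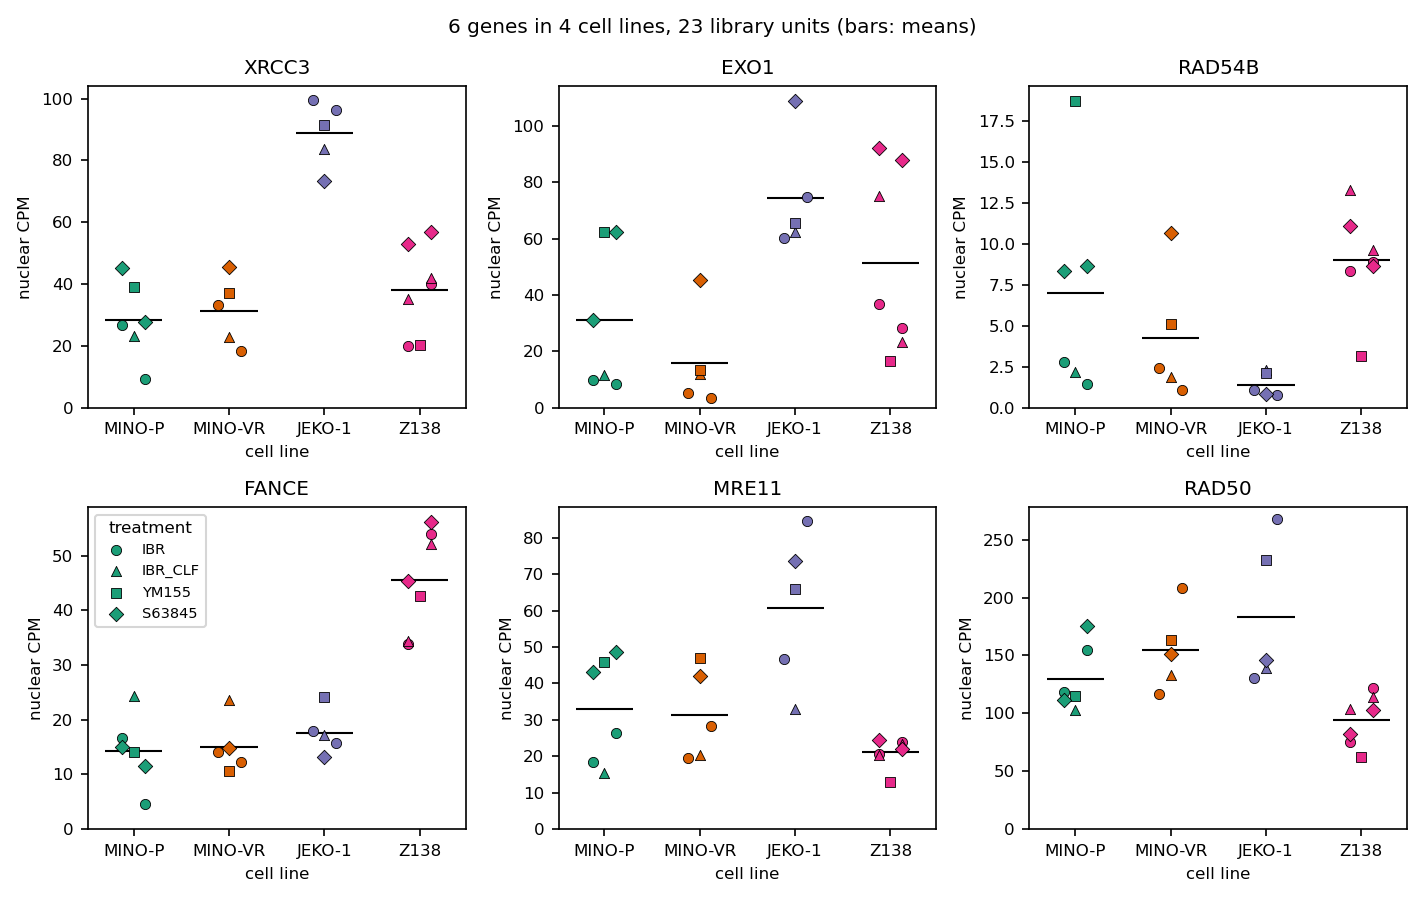
Nuclear CPM of XRCC3, EXO1, RAD54B, FANCE, MRE11 and RAD50 in the 4 lines, with 1 point for each of 23 library units, marker shape for treatment and a bar at the mean of the line. All 5 JEKO-1 units of XRCC3 lie above every unit of the other lines (73.4 or more), and all 7 Z138 units of MRE11 lie below every JEKO-1 unit (at most 24.4).

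No member passed the test between MINO-VR and MINO-P (limma, none at an unadjusted p under 0.05), while 0.859% of all genes were called. No overlap was found for 0.821% of all genes in the lower and 1.17% in the higher direction. EXO1 had the smallest p, at -0.78 ± 0.42 (adjusted p = 0.594), and the median over the 36 was -0.20.

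Of the 36 genes, 20 overlap another annotated entry, such as XRCC3 with KLC1, FANCA with ZNF276, CHEK1 with STT3A and MDC1 with TUBB. Overlap was taken between the start and end of the entries, and whether exons are shared was not looked at. Whether reads were counted by strand is not given in the sources used here, so reads from a stretch that both entries share may not be told apart. RAD54L overlaps LRRC41, and EXO1, BRIP1, XRCC2, FANCD2, UBE2T, H2AX, MRE11, FANCE and PARP1 overlap no other entry.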

How the data were processed

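The authors deposited 1 table of log2(CPM + 1) for 56 poly-A libraries, and the unit was read from the values: with the log2 undone, each library summed to 999984 or more. The genome build was hg38 and the software Partek, per the submitters' processing notes. The aligner, counter and strand use are not given in the sources used here. The unnamed row (0.000773% of a library or less) was dropped.

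From these values CPM was rescaled over genes other than the 15 mitochondrial ones. Between 72.7% and 89.9% of low values were whole reads within 0.05 reads, so no count test was run. In 8 pairs, libraries whose names differed only by a final lower-case letter were averaged. They differed by a median of 0.107 to 0.353 log2 units over genes at or above 10 CPM. The 5 Z138 pairs whose names differed by a final capital A were kept as separate units, and differed by 0.257 to 0.636. The 10 other pairs of a group differed by 0.338 to 1.44. These ranges overlap, so they do not settle which libraries were repeats. Replicate numbers follow accession order and were not used to pair libraries. Tests used limma 3.58.1 (R 4.3.3) with its trend option on log2(CPM + 1). Genes had to reach 1 CPM in 2 units, and the fits were tested on simulated data. Named genes were up to 6 called members with the largest difference in each comparison, with BRCA1, FANCD2, ATM, CHEK1, PARP1 and H2AX for BTZ and IBR. The members, gene lists and tests were chosen with earlier results of these data known. Alternatives were other scalings, filters, pseudocounts (0.25), models and left-out units.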

Additional observations from a re-analysis of the deposited data

Results flagged for a closer look

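The BTZ difference of TP53BP1 varied between the 4 cell lines (limma F-test, adjusted p = 0.0416142), 1 of the 36 genes to do so, a share below the 4.10% of all genes. It was higher with BTZ in both MINO cultures and lower in JEKO-1 (-0.76). Z138, in the same name series as JEKO-1, had 0.22 with 1 BTZ library. The MINO libraries of this comparison belong to another series, so between MINO and the other lines, line and series cannot be told apart here. The TP53BP1 test passed in 8 of 24 alternatives, with adjusted p from 0.00502 to 0.125 (limma F-test), the smallest without JEKO-1 BTZ replicate 3.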

How the results depend on the processing

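Of the named gene values, 983 kept direction and side of the threshold under an alternative, 83 lost the call and 8 turned sign, all 8 for ATM, which was not called: under BTZ 0.073 with 1 model over all libraries and 0.064 without Z138 BTZ replicate 1, and under IBR -0.13 as deposited, -0.00086 with each library its own sample, -0.21 with 1 model, -0.041 with the replicate block on the library-name suffix, -0.73 in JEKO-1 alone and -0.057 without Z138 IBR_CLF replicate 2. Leaving out 1 unit, ATM ranged from -0.45 to 0.064 under BTZ and from -0.057 to 0.44 under IBR (0.36 without Z138 IBR replicate 1). As deposited, the all-gene median under BTZ was -0.54 and with size factors -0.09, and the BTZ counts were 29 and 23. BTZ calls fell to 0 with BTZ and CON only and to 7 in JEKO-1 and Z138 only. Calls by line were 9 as deposited and 0 with each library its own sample. IBR gave 0 in Z138 only and in JEKO-1 only. YM155 against CON gave 1 with each library its own sample and 1 with 1 model. IBR against S63845 gave 5 as deposited, 18 with each library its own sample and 7 with no filter. JEKO-1 against MINO-P gave 4 as deposited, and Z138 against JEKO-1 11 as deposited and 12 with each library its own sample. The replicate block gave 15 for IBR and 0 for CLF, so it moved neither count. In Z138, 6 of the 36 genes (XRCC3, RAD50, ATM, ATR, TP53BP1 and MDC1) were higher in the library named with a final A in all 5 groups that had one, as were 17.4% of all genes, and none was lower in all 5 (8.73% of all genes). Leaving out 1 unit gave 21 to 32 for BTZ, 0 to 15 by line, 8 to 16 for IBR, 0 to 12 for IBR against S63845, 7 to 14 for JEKO-1 against MINO-P, 5 to 14 for Z138 against JEKO-1 and 0 to 0 for CLF, YM155, S63845, BTZ_YM155 and MINO-VR against MINO-P. The alternatives without libraries over 50% mitochondrial and by line or name series were chosen after seeing the data. The cause of these changes was not tested. Groups of 1 library, and genes of few reads such as RAD54B in JEKO-1 (0 to 2.80 nuclear CPM), limit what depth can show.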
